A study of Homo sapiens with 6 samples.

Results

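The genes described here are 10 regulators of epithelial-mesenchymal transition (EMT), the program by which epithelial cells lose their junctions and take on mesenchymal features. They comprise 5 EMT repressors (ZEB1, ZEB2, SNAI1, SNAI2 and TWIST1) and 5 epithelial gatekeepers (OVOL1, OVOL2, GRHL2, ESRP1 and ESRP2). They were taken by symbol from the 20356 genes of the series table, and each symbol matched 1 row. RNA sequencing covered 6 libraries of H1975, an established human lung adenocarcinoma line with mutant EGFR: 3 of the parental line, cultured without drug, and 3 of H1975 OR, an osimertinib-resistant derivative cultured with 1 µM osimertinib, a kinase inhibitor of mutant EGFR. Both were grown in RPMI-1640 medium with serum. The series design calls the 3 libraries of each group biological replicates. H1975 OR was the single resistant derivative, so resistance, the drug in the medium and other features of that derivative cannot be told apart. All p-values measure differences against the spread among replicates of these 2 cell populations. Of 3 epithelial keratins used to check the labelled lung cancer cells, all were lower in H1975 OR: KRT8 had 508 ± 34 FPKM in parental and 384 ± 19.5 in resistant cells (SD, n = 3 per group), KRT18 had 431 ± 15.2 and 274 ± 13.2, and KRT19 had 574 ± 71.8 and 4.58 ± 0.741.

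As background, ZEB, SNAI and TWIST proteins are transcription factors that bind E-box sequences, and ZEB and SNAI proteins silence E-cadherin and other junction genes by recruiting corepressors. The gatekeepers act against them. OVOL1 and OVOL2 are zinc-finger repressors known to hold down ZEB1, GRHL2 is a Grainyhead activator of junction genes that also represses ZEB1, and ESRP1 and ESRP2 are RNA-binding proteins that keep epithelial exons in transcripts such as those of FGFR2 and CD44. MicroRNAs of the miR-200 family and miR-205 target ZEB1 and ZEB2, and ZEB proteins in turn repress the miR-200 genes, which closes a double-negative loop.

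The sequences of that loop are shown here because ZEB1 and ZEB2 carry several of its sites. The other repressors, whose 3′ UTRs are shorter, carry few or none. Mature microRNAs are given from RefSeq, with the seed (bases 2 to 8) in capitals. The first 3 share the seed AAUACUG, the next 2 share AACACUG, and miR-205 has its own.
miR-200b-3p: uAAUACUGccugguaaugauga
miR-200c-3p: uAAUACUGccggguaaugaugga
miR-429: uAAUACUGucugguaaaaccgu
miR-200a-3p: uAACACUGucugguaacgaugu
miR-141-3p: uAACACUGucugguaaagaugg
miR-205-5p: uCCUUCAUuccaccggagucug

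Matches to these seeds were counted in the longest GENCODE v29 3′ UTR of each gene. The ZEB1 3′ UTR, 2549 bases long, held 6 matches to the seed of miR-200b, miR-200c and miR-429. Of the 2379 other genes with a 3′ UTR within 20% of that length, 26% held any such match and 0% held as many. It also held 3 matches for miR-200a and miR-141 and 1 for miR-205, numbers that 0.673% and 19.1% of those genes reached. The ZEB2 3′ UTR, 5370 bases long, held 5 matches for miR-200b, miR-200c and miR-429, 4 for miR-200a and miR-141, and 0 for miR-205. Among 1117 other genes of like length, 45.7% held any match for miR-200b, miR-200c and miR-429 and 0% as many. As many matches for miR-200a and miR-141 were held by 1.25%. SNAI1 and TWIST1 held 0 matches for any of the 3 seeds, and SNAI2 held 1, for miR-200b, miR-200c and miR-429. Most genes of like length also held 0. A match to the 3 seeds in turn was held by 8.06%, 8.86% and 5.66% for SNAI1 (830 bases). The shares were 6.58%, 7.08% and 4.47% for TWIST1 (706 bases), and 11.3% held a match like that of SNAI2 (1203 bases). Among the gatekeepers, ESRP1 held 1 match to each of the miR-200 seeds, as 15.1% and 18.5% of genes of like length did. GRHL2 held 1 for miR-200a and miR-141, as did 34.1%. OVOL1, OVOL2 and ESRP2 held 0. The first site of each kind for the miR-200 family, and the miR-205 site of ZEB1, are shown 5′ to 3′ with the seed match in capitals.
ZEB1, bases 369 to 375 of the 3′ UTR, miR-200b, miR-200c and miR-429: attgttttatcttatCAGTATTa
ZEB1, bases 782 to 788, miR-200a and miR-141: caaaatcatcagaatCAGTGTTt
ZEB1, bases 818 to 824, miR-205: aatatgtggtaacatATGAAGGa
ZEB2, bases 392 to 398, miR-200b, miR-200c and miR-429: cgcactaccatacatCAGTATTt
ZEB2, bases 208 to 214, miR-200a and miR-141: tgcaaaaattttgtaCAGTGTTa
A match is a description of these letters. Mature microRNAs were not measured in these libraries.

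Levels are given in FPKM, which counts fragments relative to how long the transcript is and how much of the library was mapped. The test was that of limma on log2(FPKM + 1), run on genes whose mean reached 1 FPKM in the parental or the resistant group. Fold changes are resistant minus parental on that scale, on which changes of low genes come out too small. A gene was called at a Benjamini-Hochberg FDR of 0.05 over the 12107 genes tested. Gene coordinates are GRCh37.

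The 2 ZEB genes rose in the resistant cells from very low levels. ZEB1 (10:31607424-31818742, plus strand) had 0.305, 0.121 and 0.216 FPKM in parental replicates 1 to 3, and 24.5, 24.3 and 29.9 FPKM in resistant replicates 1 to 3. Every resistant library lay far above every parental one, with means of 0.214 ± 0.0922 and 26.2 ± 3.17 FPKM (SD, n = 3 per group), a 122-fold ratio. Its log2 fold change was 4.48 ± 0.0902 (SE, limma adjusted p = 6e-13), which ranked 24 from the top of all tested genes. The deposited mean coverage, the average number of reads over each base of a gene, was for ZEB1 0.13 to 0.336 in parental replicates and 23.9 to 36.4 in resistant ones, so its parental level rests on little sequence. ZEB2 (2:145141648-145282147, minus strand) had 0.002, 0.00662 and 0.00752 FPKM in parental replicates and 8.15, 8.47 and 6.92 in resistant ones. Parental coverage of ZEB2 was at most 0.012, and the groups were separated by a wide gap. The log2 fold change of ZEB2 was 3.13 ± 0.0805 (limma adjusted p = 4.2e-12).

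The 2 SNAI genes fell instead. SNAI1, or Snail (20:48599536-48605423, plus strand), had 23.1, 21.7 and 23.4 FPKM in the parental libraries, which made it the main repressor mRNA there, and 2.55, 3.14 and 3.99 FPKM in the resistant ones. The parental libraries lay close together and wholly above the resistant ones. Its mean fell from 22.8 ± 0.911 to 3.23 ± 0.724 FPKM, a level 7.05-fold lower (log2 fold change -2.5 ± 0.107, limma adjusted p = 5.5e-09). SNAI2, or Slug (8:49830249-49834299, minus strand), had 2.3, 2.86 and 3.18 FPKM in parental replicates and 0.898, 1.12 and 1.04 FPKM in resistant ones. The groups did not overlap here either, although the gap was narrower. SNAI2 was 2.73-fold lower (log2 fold change -0.9 ± 0.0919, limma adjusted p = 1.5e-06).

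TWIST1, a basic helix-loop-helix factor (7:19060614-19157295, minus strand), was listed at 0 in all 3 parental libraries and at 0, 0 and 0.00152 FPKM in the resistant ones. It did not reach the minimum for testing. No change in TWIST1 was therefore detectable in these libraries.

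All 5 gatekeepers fell, and 4 of them were at or near 0 in the resistant libraries. OVOL1 (11:65554493-65564690, plus strand) had 4.9, 5.14 and 4.9 FPKM in parental replicates and 0, 0.0325 and 0 in resistant ones (log2 fold change -2.56 ± 0.0676, limma adjusted p = 5.1e-12). OVOL2 (20:17937623-18039832, minus strand) had 9.31, 8.63 and 9.71 FPKM in the parental libraries and was listed at 0 in all 3 resistant ones (limma adjusted p = 8e-13). The parental FPKM of both OVOL genes varied little between libraries, with OVOL2 above OVOL1 in each, although not in mean coverage. GRHL2 (8:102504660-102681954, plus strand) had 14.4, 15 and 14 FPKM in parental replicates and 0.0161, 0 and 0 in resistant ones (log2 fold change -3.94 ± 0.0672, limma adjusted p = 1.2e-13). No ratio is given for these genes, since an exact 0 in a file without counts can be a failed estimate.

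The splicing regulators gave the highest gatekeeper FPKM. ESRP1 (8:95653302-95719694, plus strand) had 49.9, 48.6 and 48 FPKM in parental replicates and 0, 0 and 0.00236 in resistant ones. It had the highest FPKM of the 10 genes in every parental library, and its fold change of -5.64 ± 0.0603 (limma adjusted p = 6.1e-15) ranked 7 from the lowest of all tested genes. ESRP2 (16:68263014-68272005, minus strand) had 23.5, 24.8 and 20.3 FPKM in parental replicates and 1.26, 0.858 and 0.924 in resistant ones. Its mean fell from 22.9 ± 2.3 to 1.01 ± 0.216 FPKM, 22.6-fold lower (log2 fold change -3.57 ± 0.092, limma adjusted p = 7.1e-12). ESRP2 was thus the gatekeeper whose mRNA was still measured at about 1 FPKM in each resistant library. Whether fewer cells carried these mRNAs or each cell carried less cannot be told apart in bulk RNA.

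**Figure D1:**
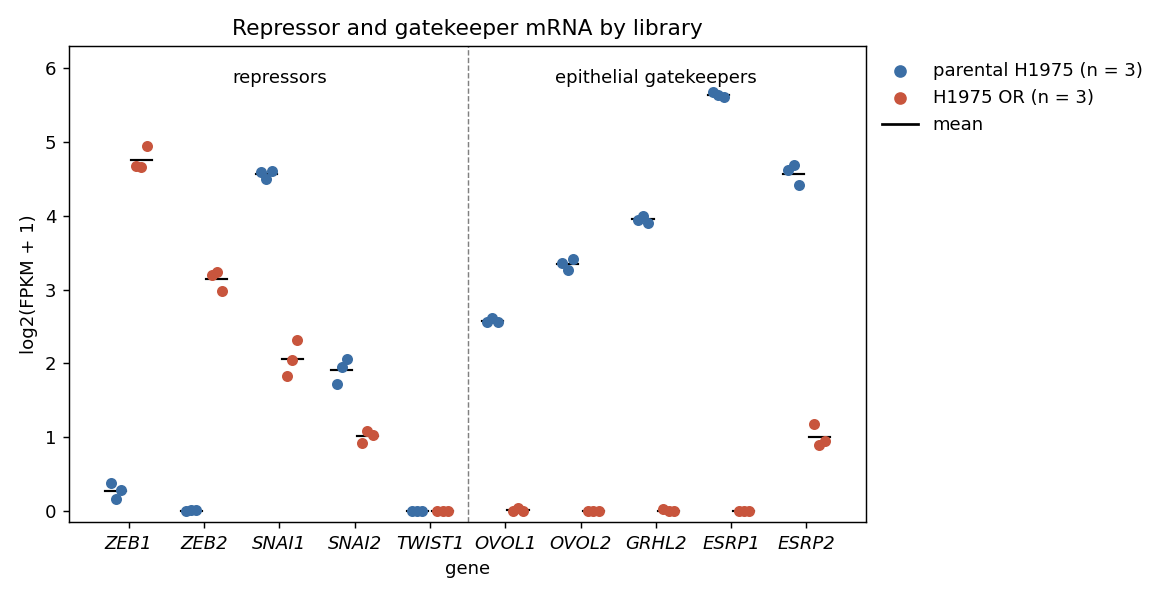
Level of each gene in each library, as log2(FPKM + 1), with parental H1975 in blue, H1975 OR in red and the group mean as a line (n = 3 per group). ZEB1 and ZEB2 sit higher in the resistant libraries, SNAI1, SNAI2 and the 5 gatekeepers sit lower, and TWIST1 stays at the bottom in both.

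Of the 10 genes, 9 were tested. At an FDR of 0.05, 2 were higher (39.9% of all tested genes were) and 7 lower (38.1% of all tested genes), so all 9 were called, against 78.0% of all genes tested. The groups did not overlap for any of the 9, against 79.8% of all tested genes. Calls of this kind were therefore common across the transcriptome, and 6 of the 9 passed the minimum level only through the group in which they were high. Changes of 3 or more in log2 were less common over all tested genes. The shares that follow only describe, since the genes were chosen with earlier results of these data known. ZEB1, ZEB2, OVOL2, GRHL2 and ESRP1 also passed the minimum level only through their high group. ZEB1 and ZEB2 rose by 3 or more in log2, as did 0.760% of tested genes, and OVOL2, GRHL2, ESRP1 and ESRP2 fell by 3 or more, as did 0.917%. The median fold change was -3.57 over the 5 gatekeepers and 1.12 over the 4 tested repressors, 2 of which rose and 2 of which fell. The median over all tested genes was 0.011. SNAI1, SNAI2 and ESRP2 had at least 1 FPKM in both groups, and these 3 fell.

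Summed over each class in FPKM, the balance of the mRNAs turned round. The repressors summed to 25.7, 24.7 and 26.8 FPKM in parental replicates and to 36.1, 37 and 41.8 in resistant ones. The gatekeepers summed to 102, 102 and 96.9 FPKM in parental replicates and to 1.28, 0.89 and 0.926 in resistant ones. Repressors thus made up 20.1%, 19.5% and 21.7% of the summed FPKM of both classes in parental cells, and 96.6%, 97.7% and 97.8% in resistant cells. In FPKM, the repressor sum changed much less than the genes within it. ZEB1 and ZEB2 held 0.847% ± 0.337 of it in parental cells and 89% ± 1.27 in resistant cells (SD, n = 3 per group), whereas SNAI1 and SNAI2 went from 99.2% ± 0.351 to 11% ± 1.29. Summed as FPKM, the repressor mRNA of the parental line was hence nearly all SNAI, and that of the derivative mostly ZEB. Deposited mean coverage gave another picture. In resistant replicates 1 to 3 it was 31.2, 23.9 and 36.4 for ZEB1 and 7.19, 6.34 and 7.43 for ZEB2. For SNAI2 it was 8.74, 9.95 and 10.9, and for SNAI1 27.1, 30.5 and 45.7, down from 341, 235 and 261 in parental replicates. On that measure the repressor sum fell, and SNAI was not a minor part of it in the derivative. Within resistant replicate 1, ZEB1 had a coverage of 31.2 at 24.5 FPKM and SNAI1 one of 27.1 at 2.55 FPKM. Coverage was thus not proportional to FPKM between genes, and the cause of the difference was not tested.

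**Figure D2:**
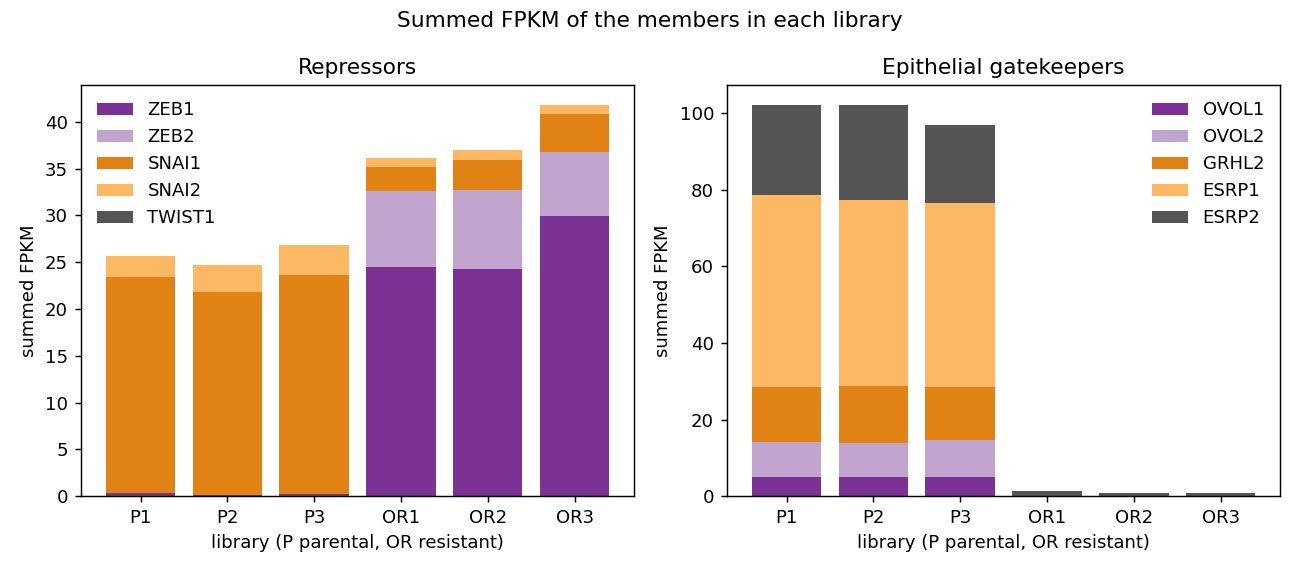
Summed FPKM of the repressors (left) and of the gatekeepers (right) in each library, stacked by gene (P parental, OR resistant). The repressor bars grow from 24.7 to 26.8 up to 36.1 to 41.8 FPKM while their filling changes from SNAI1 to ZEB1 and ZEB2, and the gatekeeper bars shrink from 96.9 to 102 down to 0.89 to 1.28 FPKM.

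In order of FPKM, the parental libraries gave ESRP1, then ESRP2 and SNAI1, then GRHL2, OVOL2, OVOL1, SNAI2, ZEB1, ZEB2 and TWIST1. The library values of ESRP2 (20.3 to 24.8 FPKM) and SNAI1 (21.7 to 23.4) overlapped, so their order is not settled. All other neighbours in that order were separated in FPKM in every library. Deposited mean coverage ordered them otherwise. ESRP1 had a coverage of 145, 105 and 103 in parental replicates 1 to 3. SNAI1 (341, 235 and 261), ESRP2 (200, 157 and 132) and GRHL2 (179, 136 and 131) were above ESRP1 in each. The order between genes therefore depends on the measure. In the resistant libraries the order of FPKM was ZEB1, ZEB2, SNAI1, then SNAI2 and ESRP2, whose ranges overlapped. OVOL1, GRHL2, ESRP1, TWIST1 and OVOL2 came last, at or near 0 and not separated from each other.

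The nearest profiles to ZEB1, SNAI1 and ESRP1 were found by Euclidean distance of log2(FPKM + 1) over the 6 libraries among the tested genes. For ZEB1 they were LRIG1 (distance 0.323), a negative regulator of receptor tyrosine kinases, COL8A1 (0.377), a short-chain collagen, and LTF (0.509), which encodes lactoferrin. LRIG1 had 0.237 ± 0.0557 FPKM in parental and 27.6 ± 0.757 in resistant cells. For SNAI1 they were VWA1 (0.179), NUDT14 (0.507) and PCED1B (0.542), of which VWA1 went from 23 ± 1.02 to 3.16 ± 0.358 FPKM. For ESRP1 they were LAD1 (0.0783), DSP (0.196) and SPINT1 (0.4). DSP encodes the desmosomal protein desmoplakin, LAD1 encodes ladinin and SPINT1 encodes an epithelial protease inhibitor. With 2 groups of 3, such a distance mainly matches a pair of group levels.

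Other genes of the same families were low. Of SNAI3, TWIST2, OVOL3, GRHL1 and GRHL3, only GRHL1 was tested, and it fell from 3.91 ± 0.26 to 1.02 ± 0.176 FPKM (log2 fold change -1.28, limma adjusted p = 1.8e-08). SNAI3 had a mean of 0.171 FPKM in parental and 0.095 in resistant cells, and TWIST2 was listed at 0 in all libraries. OVOL3 had 0.156, 0.0698 and 0.0978 FPKM against 0.0328, 0.0702 and 0, and GRHL3 had 0.0206, 0.0678 and 0.0925 against 0.0277, 0.0256 and 0. No family member stood at a high level in the cells where its relative was low.

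Genes reported as repressed by ZEB or SNAI factors, or driven by GRHL2, mostly fell with the gatekeepers. Of 25 such genes, all tested, 23 fell (38.1% of all tested genes did), 1 rose and 1 did not pass. By 1 or more in log2, 21 fell. Their median fold change was -3.29, against 0.011 over all tested genes. Several of them, such as CDH1, CRB3, LLGL2 and RAB25, reached the minimum for testing only in parental cells. Such genes could be tested only by being lower in resistant cells. The list was also chosen with earlier results of these data known, so these shares only describe. Some genes of the lists below likewise passed the minimum only through 1 group. CDH1, E-cadherin, had 70, 71.4 and 64.4 FPKM in parental replicates and 0.0293, 0.0354 and 0.00965 in resistant ones (log2 fold change -6.08, limma adjusted p = 6.1e-15). EPCAM, an epithelial adhesion molecule, fell from 211 ± 15.6 to 1.02 ± 0.237 FPKM. The polarity genes CRB3, of the Crumbs complex, and LLGL2, of the Scribble complex, fell from 15.1 ± 1.69 to 0.0627 ± 0.0318 and from 14.2 ± 1.23 to 0.217 ± 0.0635 FPKM. The tight-junction gene CLDN7 fell from 127 ± 3.21 to 8.69 ± 1.58 FPKM. RAB25, a small GTPase of epithelial recycling endosomes, had 2.22, 2.17 and 2.25 FPKM against 0.0598, 0.135 and 0. The exceptions, named after their values were seen, were SEMA3F, a semaphorin that rose from 1.3 ± 0.127 to 12.2 ± 1.65 FPKM, and the mucin MUC1, at 12.5 ± 3.07 and 13.6 ± 0.552 FPKM (limma adjusted p = 0.426).

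Promoter sequences are shown for a pair of these targets and for ZEB1, because ZEB and SNAI proteins bind the E-box CACCTG and both classes of repressor were expressed in one or the other group. The RefSeq windows run from 250 bases before a start to 50 after it (GRCh38.p14), and CACCTG was searched on both strands, which also finds CAGGTG. It was present in 20.6% of 35116 windows, and at least 3 matches were present in 0.635%. Of the 25 target genes, 15 were in the table, and 12 of these held at least 1 match in some window, against 24.1% of 27305 genes. The list was made of genes reported as repressed by ZEB or SNAI factors, or driven by GRHL2, so a high share can be built into it. Some window of SEMA3F, which rose, held 1, and MUC1, which did not pass, held 2, while the 3 targets with 0 matches, CGN, CLDN4 and MARVELD2, all fell (log2 fold changes -2.34, -3.29 and -1.58). CRB3 held 5 matches, at -228, -208, -147, -89 and -60 from the start, and RAB25 held 2, at -41 and 38. Matches are in capitals, and both sequences read 5′ to 3′ on the plus strand.
CRB3, chr19:6464021-6464320: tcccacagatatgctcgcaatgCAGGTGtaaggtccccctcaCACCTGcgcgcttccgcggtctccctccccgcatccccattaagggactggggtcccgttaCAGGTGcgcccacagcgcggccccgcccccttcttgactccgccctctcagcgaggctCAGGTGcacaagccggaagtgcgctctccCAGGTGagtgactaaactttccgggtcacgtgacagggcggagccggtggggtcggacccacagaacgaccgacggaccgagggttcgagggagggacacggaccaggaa
RAB25, chr1:156060910-156061209: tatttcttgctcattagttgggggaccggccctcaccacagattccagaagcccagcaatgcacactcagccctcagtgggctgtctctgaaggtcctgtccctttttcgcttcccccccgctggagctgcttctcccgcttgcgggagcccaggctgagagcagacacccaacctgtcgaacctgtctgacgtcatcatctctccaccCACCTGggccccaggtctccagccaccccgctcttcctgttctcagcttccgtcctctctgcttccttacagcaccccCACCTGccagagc
Of the 10 regulators, ZEB1 (7 windows) and ZEB2 (1 window) were matched in the table. The ZEB2 window held 0 matches, and 2 of the 7 ZEB1 windows held some. The ZEB1 window with 3 matches, at -242, -85 and 34 on the plus strand, reads as follows.
ZEB1, chr10:31318966-31319265: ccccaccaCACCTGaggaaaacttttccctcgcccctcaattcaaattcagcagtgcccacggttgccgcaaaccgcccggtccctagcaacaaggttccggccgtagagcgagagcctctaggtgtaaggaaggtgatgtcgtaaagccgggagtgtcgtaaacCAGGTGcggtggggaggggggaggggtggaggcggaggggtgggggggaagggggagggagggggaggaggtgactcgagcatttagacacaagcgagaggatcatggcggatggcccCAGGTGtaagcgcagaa
The Grainyhead motif AACNGGTT, also searched on both strands, was present in 1.73% of all windows, in a window of 1 of the 15 targets and in 0 of the ZEB windows. Such matches describe letters in these windows, and binding was not measured.

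Among 17 other transcription factors of epithelial identity, 10 were tested, with a median fold change of -1.33. Of these, 8 fell and 2 rose, against 38.1% lower and 39.9% higher over all tested genes. KLF5, a Krüppel-like factor of epithelial progenitors, fell from 7.23 ± 0.337 to 1.83 ± 0.0672 FPKM, and the epithelial ETS factor ELF3 from 25.8 ± 4.24 to 11.2 ± 0.832. EHF, a further epithelial ETS factor, fell from 2.56 ± 0.241 to 0.144 ± 0.0386 FPKM. KLF4, a Krüppel-like factor of epithelial differentiation, rose from 8.48 ± 0.621 to 12.9 ± 0.583 FPKM (log2 fold change 0.55). Of 21 other factors associated with EMT, 13 were tested, of which 5 rose, 7 fell and 1 did not pass, with a median of -0.66. PRRX1, a homeobox EMT inducer, had 0.000269, 0.0053 and 0 FPKM against 0.0167, 0.0846 and 0.0642, and was not tested.

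Mesenchymal markers moved in both directions. Of 20 listed, 13 were tested, of which 10 rose and 3 fell, against 39.9% higher and 38.1% lower over all tested genes. Their median fold change was 1.14. VIM, the mesenchymal intermediate filament vimentin, had 126, 111 and 134 FPKM in parental replicates and 635, 718 and 700 in resistant ones (log2 fold change 2.46). FN1, fibronectin, fell from 95.7 ± 12.1 to 8.97 ± 0.654 FPKM (log2 fold change -3.27). CDH2, N-cadherin, had 0.116, 0.0381 and 0.0479 FPKM against 0.0598, 0.0856 and 0.085, and was not tested. The level of CDH2 was thus near 0 in both groups, and the replicate values overlapped.

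Corepressors through which ZEB and SNAI proteins act were expressed in both groups. Of 20 listed, 19 were tested, with a median fold change of 0.03. Of these, 7 rose, 7 fell and 5 did not pass, near the 39.9% higher and 38.1% lower over all tested genes. CTBP1, the C-terminal binding protein used by ZEB1, fell from 42.2 ± 2.38 to 32.8 ± 1.13 FPKM (log2 fold change -0.35, limma adjusted p = 0.000225), while its relative CTBP2 had 39.5 ± 2.05 and 40.3 ± 2.04 FPKM (limma adjusted p = 0.71). KDM1A, the histone demethylase used by SNAI1, fell by 0.21 on the log2 scale, and EZH2, the methyltransferase of Polycomb complex PRC2, fell by 0.28. The largest changes of the list, named after their values were seen, were those of AJUBA, a LIM protein that binds SNAI1, from 21 ± 0.884 to 58 ± 3.43 FPKM (log2 fold change 1.42), of SMARCA4, the BRG1 ATPase, from 39.7 ± 0.874 to 82.8 ± 2.09 (1.04), and of HDAC1, a histone deacetylase, from 88.8 ± 3.42 to 43.7 ± 1 (-1.01). DNMT1, the maintenance DNA methyltransferase, rose by 0.81 on the log2 scale.

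Splicing factors that share targets with the ESRP proteins changed less than ESRP1 and ESRP2 did. Of 18 listed, 17 were tested, with a median of -0.15. Of these, 3 rose, 8 fell and 6 did not pass, against 39.9% higher and 38.1% lower over all tested genes. RBM47, which promotes epithelial splicing, fell from 23.3 ± 1.58 to 7.39 ± 0.00343 FPKM (log2 fold change -1.53). RBFOX2 and QKI, which promote mesenchymal splicing, rose from 34.3 ± 1.14 to 43.7 ± 2.36 FPKM (log2 fold change 0.34) and from 15.1 ± 2.05 to 26.2 ± 1.69 (0.76). The values are per gene, so exon use was not measured.

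Of 13 listed ligands, receptors and SMADs of the TGF-beta superfamily, which can act upstream of the repressors, 12 were tested. In this list 9 rose, 1 fell and 2 did not pass, against 39.9% higher and 38.1% lower over all tested genes. The median fold change was 0.4, and 2 rose by 1 or more in log2. The list includes the BMP genes BMP4 and BMPR1A and the activin gene INHBA, and its largest rise was that of BMP4, from 0.0272 ± 0.0136 to 7.83 ± 0.343 FPKM (log2 fold change 3.1). The ligand gene TGFB1 rose from 7.54 ± 1.59 to 14.4 ± 1.44 FPKM (log2 fold change 0.86), and TGFB2 rose from 11 ± 0.0477 to 19.6 ± 1.51 (0.78). The receptor gene TGFBR2 had 12.8, 13.4 and 15 FPKM in parental replicates and 14.9, 15.7 and 16.4 in resistant ones. It passed with a log2 fold change of 0.18 (limma adjusted p = 0.0312), although the groups overlapped. Of 15 enzymes that act on the stability of SNAI, TWIST and ZEB proteins, 14 were tested, with a median of 0.06. Here 6 rose, 4 fell and 4 did not pass, against the same shares over all tested genes. BTRC, the F-box protein that targets phosphorylated Snail for degradation, rose from 3.65 ± 0.0738 to 5.85 ± 0.21 FPKM. GSK3B, a kinase that phosphorylates Snail, fell from 18.4 ± 2.62 to 11.7 ± 0.71 FPKM. Protein levels were not measured.

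**Figure D3:**
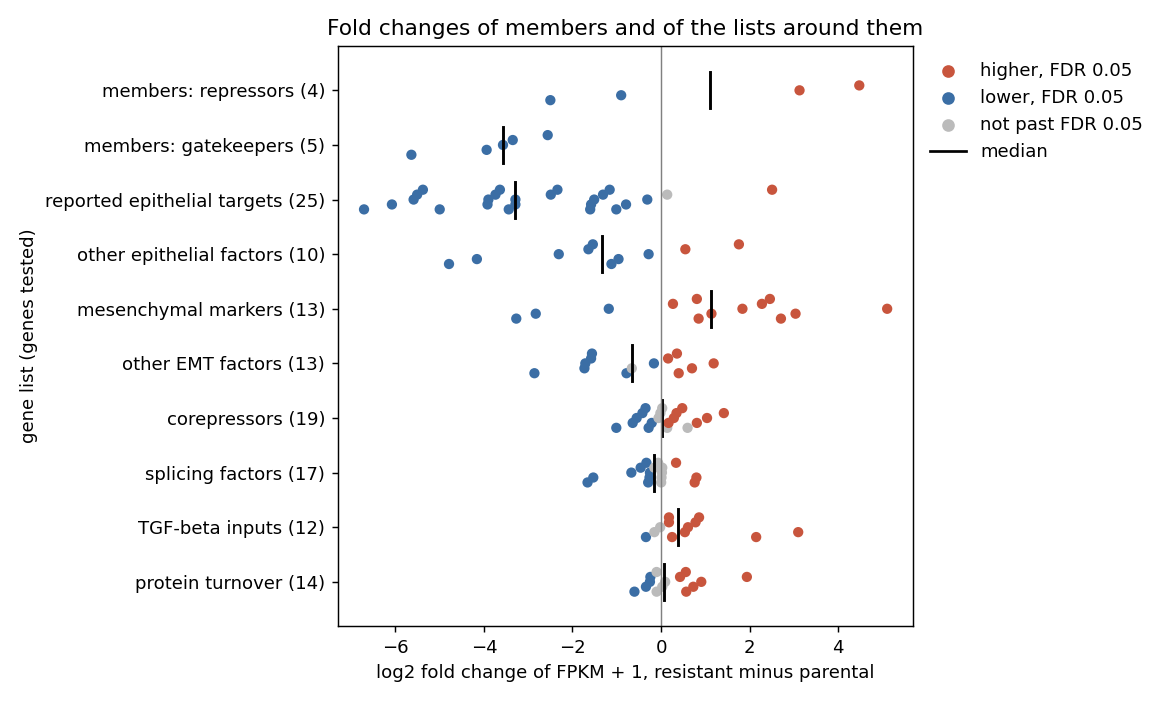
Log2 fold changes (resistant minus parental, FPKM + 1) of the tested genes of each class and list, with red for higher, blue for lower, grey for genes not past FDR 0.05 and a black line at the median. Gatekeepers and reported epithelial targets lie mostly to the left, with medians of -3.57 and -3.29, while corepressors, splicing factors and protein turnover genes lie around 0 (medians 0.03, -0.15 and 0.06).

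Noncoding transcripts of the loop were read from the library files and were not tested. ZEB1-AS1, antisense to the ZEB1 start (10:31495207-31609376, minus strand), had 1.27, 1.26 and 1.44 FPKM in parental replicates and 7.59, 9.58 and 9.85 in resistant ones. It overlaps ZEB1, and without stated strand use reads of the 2 genes cannot be told apart there. MIR200CHG, the host transcript of miR-200c and miR-141 (12:7072409-7073610, plus strand, matched by gene ID), had 0.818, 0.741 and 1.14 FPKM in the parental libraries and was listed at 0 in all resistant ones. MIR205HG, the host transcript of miR-205, had 0.744, 0.467 and 0.771 FPKM against 0, 0.00279 and 0. ZEB2-AS1 was listed at 0 in the parental libraries and had 0.0576, 0.116 and 0.101 FPKM in the resistant ones. Both host transcripts were thus low in parental cells and at or near 0 in resistant ones. The short precursor entries lay lower than the host transcripts did in parental cells. MIR141 had 0.057, 0.109 and 0.00757 FPKM against 0, 0 and 0.00551, and MIR200C had 0.0445, 0.0353 and 0 against 0 throughout. Those of the other miR-200 cluster were listed at 0 in all parental libraries. In resistant ones MIR200B had 0.181, 0 and 0.0676 FPKM, MIR200A 0, 0 and 0.0878, and MIR429 0.0949, 0.201 and 0. The levels are too low for more than this description.

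Genes beside the regulators were examined, as the 5 nearest tested genes on each side. The shares over all tested genes were 39.9% higher and 38.1% lower. All 10 around ZEB1, within 1.86 Mb, rose, with fold changes from 1.03 to 4.19 and a median of 1.99, against 0.06 over chromosome 10. They included the kinase gene MAP3K8, from 3.22 to 76.3 FPKM, and the integrin gene ITGB1, from 116 to 712 FPKM, and ZEB1 itself was above each of them at 4.48. Around ZEB2, 8 of 10 rose and 0 fell (median 0.82, chromosome 2 median -0.21), although the farthest lay 8.48 Mb away. Around GRHL2, 9 of 10 fell (median -0.71), and around ESRP1, 8 of 10 fell and 1 rose (median -0.69), against -0.17 over chromosome 8. Around OVOL2, 8 of 10 fell and 0 rose (median -0.45, chromosome 20 median -0.12).

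The genes around OVOL1 went the other way from OVOL1, with 7 of 10 higher and 0 lower (median 0.44, chromosome 11 median 0.37). Those around ESRP2 had a median of 0.09, with 4 higher and 2 lower. Those around SNAI1 had a median of -0.33 (2 higher, 7 lower, chromosome 20 median -0.12), those around SNAI2 0.19 (5 higher, 3 lower) and those around TWIST1 0.01 (4 higher, 4 lower). Each of the 9 tested regulators changed by more than the median of its neighbours. The part of these regional shifts in the values of the regulators was not tested.

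**Figure D4:**
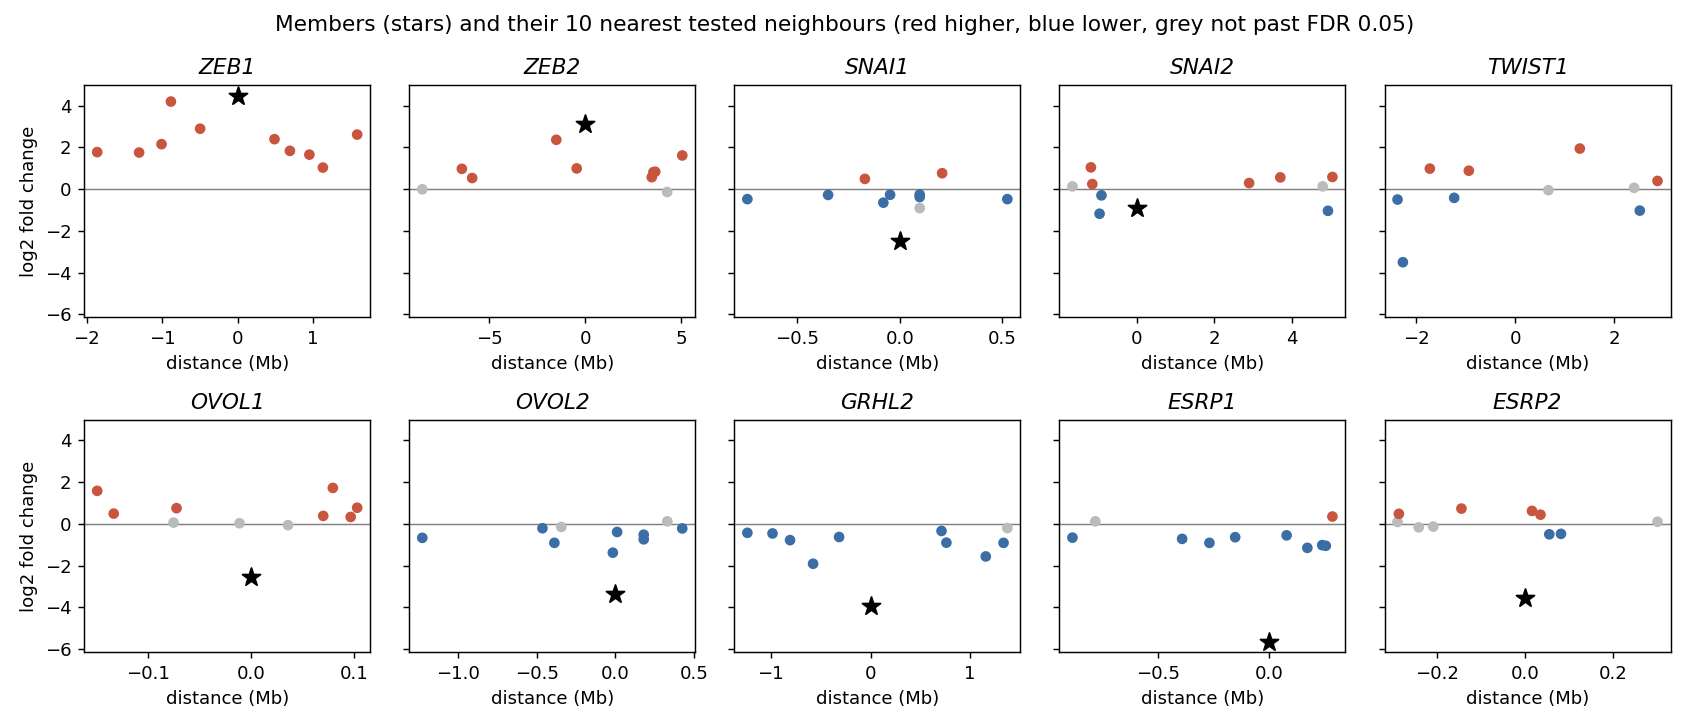
Log2 fold change (resistant minus parental, FPKM + 1) of each regulator (star) and of its 10 nearest tested genes against their distance from it in Mb, with red for higher, blue for lower and grey for not past FDR 0.05. The 10 genes around ZEB1 all lie above 0, those around GRHL2 all lie below 0, and TWIST1 has no star because it was not tested.

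Markers of other cell types were measured beside these results. Of 8 fibroblast markers, 1 was tested and rose (PDGFRB, from 0.0444 ± 0.0149 to 3.94 ± 0.445 FPKM). Their summed level was 0.1 to 0.129 FPKM in parental replicates and 4 to 4.88 in resistant ones. Of the defining fibroblast genes, DCN was at 0 in all libraries, LUM had means of 0.0128 FPKM in parental and 0.0217 in resistant cells, and COL3A1 had 0.0125 and 0.285. Of 9 leukocyte and endothelial markers, 8 were matched and 3 were tested and rose (CD14, CD68 and CDH5), with sums of 24.8 to 28.4 and 71.4 to 81.6 FPKM. CD3E was at 0 in all libraries, and PTPRC, the pan-leukocyte gene, was at means of 0.00247 and 0.0154 FPKM. The keratins given above had log2 fold changes of -0.4 (KRT8), -0.65 (KRT18) and -6.69 (KRT19). The part of these other markers in the results was not tested.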

How the data were processed

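The values the authors deposited are FPKM, in a series table of 20356 gene IDs. The deposited file of each library lists 57905 IDs and gives, per the file headers, GRCh37 coordinates, coverage, FPKM and TPM. The build and DESeq, with no version, are named in the submitters' processing notes, and the aligner, the counting and strand use are not given in any source used here. No read counts were used, so depth in reads is unknown. The mapped sequence, estimated from the ratio of deposited coverage to FPKM, was 9.72 to 14.7 gigabases per library, and precision is limited by 3 libraries per group.

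The test was limma 3.58.1 (R 4.3.3) on log2(FPKM + 1) of the 12107 genes whose mean reached 1 FPKM in the parental or the resistant group. The model held group alone, variances were moderated robustly along the mean trend, and two-sided p-values were adjusted by Benjamini-Hochberg over those genes. The code was tested on simulated data. Each of the 6 series table columns matched a library title, and 2 of 182 list entries (MIR205 and PECAM1) had no match. The genes and lists were chosen with earlier results of these data known. Named genes are the 10 regulators, list genes fixed by name whatever their values, and the 3 nearest profiles of ZEB1, SNAI1 and ESRP1. Others named were chosen after their values were seen. Sequences of SNAI2, GRHL2 and ESRP1 are not printed here. Alternatives covered the pseudocount, the filter, TPM, other scalings, a replicate block and each library left out.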

Additional observations from a re-analysis of the deposited data

How the results depend on the processing

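For the 9 tested regulators, 14 to 16 alternatives per gene gave a test, and each of these left the direction and the call as they were. ZEB1 ranged from 4.39 to 6.43, SNAI1 from -2.8 to -2.38 and ESRP1 from -8.92 to -5.61 on the log2 scale (6.43, -2.8 and -8.92 with a pseudocount of 0.1), and the highest adjusted p of any of them was 0.00035, for SNAI2. With a mean of at least 1 FPKM required in both groups, 0 regulators were called higher and 3 lower, since the others are not tested under that filter. The median of the genes around TWIST1 turned from 0.01 to -0.03 under quantile normalization, and the cause was not tested. With a replicate block, 9422 genes were called against 9448 without it, and the same numbers of regulators, 2 higher and 7 lower. Deviations of libraries of the same number had correlations of -0.135, 0.0761 and 0.099, and those of different numbers -0.161 to 0.0782. With 3 libraries per group, these values cannot decide whether the numbers pair the samples. Leaving out each library in turn gave 8985 to 9261 calls. TWIST1 was tested only without a filter (log2 fold change 0.00073, adjusted p = 0.947). Depth limits what can be said of the genes listed at or near 0, since no counting error can be given for them.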
